A study of Mus musculus with 16 samples.

Results

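Dietary protein is finished at the surface of the enterocyte. Pancreatic proteases leave short peptides in the lumen, peptidases anchored in the brush border trim them, and the products enter the cell either as di- and tripeptides through the proton-coupled carrier Slc15a1 or as free amino acids through sodium-dependent carriers and exchangers. Cytosolic dipeptidases split what arrived as peptide, and a second set of carriers in the basolateral membrane passes amino acids to the blood. The 30 genes described here cover that path in the mouse small intestine: 12 peptidases of the lumen or cell surface, 3 cytosolic peptidases, 9 carriers of apical uptake, 5 carriers or subunits of basolateral exit, and Slc7a15, a carrier related to the exchanger light chains that is placed in neither membrane here. They were picked by symbol for their function, with earlier results of these data known, and are 30 of the 55359 rows of the deposited count table. All 30 passed the filter on low counts in every comparison.

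The study sequenced RNA of 2 gut regions, duodenum and ileum, in 8 adult male C57BL/6N mice kept on a high fat diet, 4 per genotype, which gave 16 libraries. Control mice were Neurog3f/f. Mutant mice were Neurog3f/f; Villin-CreERT2, in which the Villin promoter drives a tamoxifen-inducible Cre recombinase in the intestinal epithelium. Tissue was taken 5 weeks after tamoxifen, in a study that set out to profile intestine without enteroendocrine cells, the hormone-producing cells that need Neurog3. Controls carried the same floxed alleles and ate the same diet but had no recombinase, so recombinase activity and the loss of Neurog3 cannot be told apart. The libraries are of pieces of whole organ, in which fewer cells of a type and less RNA per cell cannot be told apart.

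Libraries held 40.9 to 67.2 M counts, where M stands for 1000000. Neurog3 had 549 counts over the 4 control duodenum libraries and 201 over the 4 control ileum libraries, against 1 count in each set of mutant libraries. Of 13 enteroendocrine markers 11 fell in the mutant duodenum and 13 in the mutant ileum. Some libraries stood apart. Exocrine pancreas markers, which do not belong to the intestinal wall, made up 15.4% (M167) and 15.1% (M177) of the duodenal counts in 2 mutants, 0.747% and 3.58% in mutant mice M136 and M168, 2.62% and 1.75% in control mice C133 and C151, and under 0.001% in control mice C134 and C154. Markers of B cell follicles summed to 55.2 and 92.8 counts per 1000000 counts of the library (CPM) in the duodenum of control mice C134 and C154, and lay between 10.9 and 27.3 CPM in the other 6 duodenum libraries. In the ileum the same markers reached 146 and 169 CPM in these controls and at most 13.0 CPM in the other 6 libraries. Counts of called genes are therefore also given below without mice C134 and C154 and without mice M167 and M177. Levels are CPM scaled with trimmed means (TMM), values are listed in the order C133, C134, C151 and C154 for controls and M136, M167, M168 and M177 for mutants, and a gene is called where edgeR's quasi-likelihood test gave an adjusted p under 0.05 over all genes tested.

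The share of all counts that these 30 genes held together differed between the ileum groups. They took 3.08% ± 0.310 (SD, n = 4) in the control ileum and 1.51% ± 0.260 in the mutant ileum. The groups did not overlap, with the lowest control at 2.81% and the highest mutant at 1.83%. Anpep is a large part of this, with an ileal mean of 9576 CPM in controls and 3797 CPM in mutants. The 30 genes summed to 26351 CPM and 12878 CPM. In the duodenum they took 1.42% ± 0.276 in controls and 1.11% ± 0.454 in mutants, and the groups overlapped. Per kilobase of exon, Anpep was the most abundant member in both control tissues, at 2319 CPM per kb in the ileum and 503 in the duodenum. Naaladl1 followed in the control ileum at 1061 and Mep1b in the control duodenum at 402. The peptide carrier Slc15a1 stood at 139 CPM per kb in the control ileum and at 45.6 in the mutant ileum. Slc1a1, Slc1a5 and Slc36a1 were the least abundant carriers of the apical group in the control ileum, at 20.5, 8.72 and 6.51 CPM per kb.

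Sequences upstream of 4 surface peptidases are shown because these genes carry the contrasts that follow: Mep1a and Xpnpep2 had a genotype effect that differed between the tissues, Dpp4 fell in the mutant ileum, and Tmprss15 had the steepest duodenal bias. Each is the 250 bases before the RefSeq start in GRCm38.p6, 5′ to 3′ on the gene's strand, with capitals at matches to 5 motifs searched on both strands.
Mep1a, chr17:43502774-43503023, minus strand: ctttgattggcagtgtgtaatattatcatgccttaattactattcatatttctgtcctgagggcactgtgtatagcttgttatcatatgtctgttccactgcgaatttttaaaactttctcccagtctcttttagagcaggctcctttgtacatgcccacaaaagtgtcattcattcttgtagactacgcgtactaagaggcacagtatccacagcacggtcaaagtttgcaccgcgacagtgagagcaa
Xpnpep2, chrX:48108475-48108724, plus strand: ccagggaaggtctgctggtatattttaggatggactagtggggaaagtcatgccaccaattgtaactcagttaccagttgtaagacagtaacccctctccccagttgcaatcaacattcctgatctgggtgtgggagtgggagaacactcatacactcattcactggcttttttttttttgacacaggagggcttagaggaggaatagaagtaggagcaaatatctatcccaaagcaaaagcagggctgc
Dpp4, chr2:62412232-62412481, minus strand: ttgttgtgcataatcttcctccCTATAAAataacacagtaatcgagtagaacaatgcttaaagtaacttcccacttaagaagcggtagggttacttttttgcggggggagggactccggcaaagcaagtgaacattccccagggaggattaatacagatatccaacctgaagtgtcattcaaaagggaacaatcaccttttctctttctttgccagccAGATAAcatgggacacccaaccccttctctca
Tmprss15, chr16:79091098-79091347, minus strand: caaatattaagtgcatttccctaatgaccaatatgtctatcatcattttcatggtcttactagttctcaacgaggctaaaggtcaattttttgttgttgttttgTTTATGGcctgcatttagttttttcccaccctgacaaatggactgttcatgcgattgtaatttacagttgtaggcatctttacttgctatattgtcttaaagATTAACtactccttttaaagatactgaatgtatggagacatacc
The motifs were the HNF1 site GTTAAT, the HNF4 site CAAAGTCCA, the CDX site TTTATNG, the GATA site AGATAA and the TATA box TATAAA, whose letters can overlap those of the CDX site, as they do in Dpp4. The reference table held 38 promoters for 25 of the 30 genes. GTTAAT stood in 6 of these 38 (15.8%) and in 6.43% of all 32851 promoters of that length, TTTATNG in 4 of 38 (10.5%) and 9.81%, AGATAA in 6 of 38 (15.8%) and 9.99%, TATAAA in 6 of 38 (15.8%) and 12.4%, and CAAAGTCCA in 1 of 38 (2.63%) and 0.384%. The Mep1a and Xpnpep2 windows held none of the 5, and Tmprss15 held an HNF1 site and a CDX site. A match is a description of letters, and no binding was measured.

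The first comparison asked how mutant and control ileum differ. Mutant ileum had less RNA of most of these genes: 18 of the 30 fell and 2 rose, where 14.6% of all 18310 genes tested fell and 19% rose (33.6% together). The log2 fold change of mutant over control was negative in 27 of the 30, with a median of -0.87 against -0.03 over all genes tested. In 19 genes every mutant library lay below every control library, and in 2 every mutant lay above, while over all genes tested 16% and 16.9% were separated in these ways. Falls were spread over the path: 9 of 12 surface peptidases, 2 of 3 cytosolic peptidases, 4 of 9 apical carriers and 3 of 5 basolateral genes. Both genes that rose, Slc1a5 and Slc6a6, were apical carriers. Without control mice C134 and C154 the counts were 10 lower and 1 higher, where 1677 of 19230 genes tested fell and 2390 rose. With M167 and M177 left out they were 11 lower and 2 higher, where 2103 of 19216 fell and 3512 rose. The calls that held in all 20 alternative fits were those of Slc1a5, Mep1a, Mep1b, Slc7a9, Dpp4, Anpep and Pepd.

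**Figure D1:**
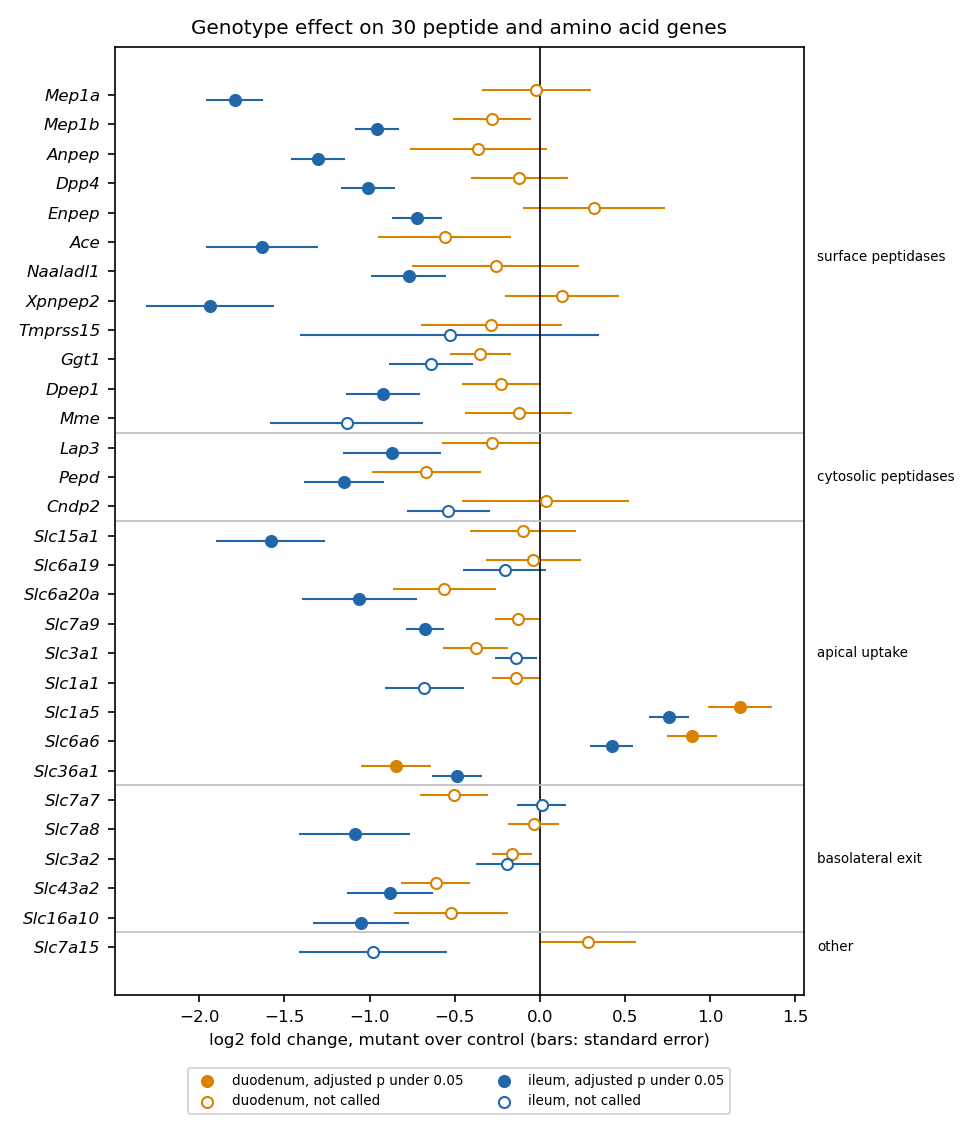
Log2 fold change of mutant over control (x axis, bars are standard errors) for each of the 30 genes in the duodenum (orange) and the ileum (blue), filled where the adjusted p was under 0.05. In the ileum 18 filled points lie left of 0 and 2 right of it, and in the duodenum 1 lies left and 2 lie right.

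Among the surface peptidases, Mep1a encodes the alpha subunit of meprin, a metalloendopeptidase of the brush border, and Mep1b the beta subunit. Mep1a was at 1180.3, 1625, 1133 and 1455 CPM in the 4 control ileum libraries and at 425, 284, 423 and 395 CPM in the 4 mutant ones. The groups were far apart, the fold change was -1.79 on the log2 scale (SE 0.17) and the adjusted p was 5.86e-05 by edgeR's quasi-likelihood test, a 3.46-fold lower level in mutants. Mep1b was at 1359, 1715, 1415 and 1718 CPM in controls and 845, 659, 873 and 760.4 CPM in mutants, again without overlap. Its log2 fold change was -0.96 (SE 0.13, adjusted p = 3.74e-04 by edgeR). Both subunits fell, Mep1a by more in these values.

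Anpep, aminopeptidase N, removes single residues from the amino end of peptides and is among the most abundant brush border proteins. It was at 8891, 10458, 9172 and 9783 CPM in control ileum and at 3245, 2983, 4819 and 4141 CPM in mutant ileum. The highest mutant was well below the lowest control, with a log2 fold change of -1.31 (SE 0.16, adjusted p = 1.99e-04 by edgeR). Enpep, aminopeptidase A, takes off acidic residues. It was at 2084, 2256, 2129.6 and 2229 CPM in controls and 1443, 926, 1558 and 1246 CPM in mutants, a log2 fold change of -0.72 (adjusted p = 0.00387 by edgeR). Here too all 4 mutants lay below all 4 controls, by a smaller step than for Anpep. The Enpep call was lost in the fit of all 16 libraries (adjusted p = 0.0914 by edgeR).

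Proline makes peptide bonds that most peptidases leave alone, and 3 members deal with it. Dpp4 releases dipeptides with proline or alanine in the second place, Xpnpep2 removes the residue before a proline, and the cytosolic enzyme Pepd splits dipeptides that end in proline. Dpp4 was at 719, 1075, 843 and 929 CPM in control ileum and 449.8, 342, 534 and 413 CPM in mutant ileum. Xpnpep2 was at 503, 919, 491 and 646 CPM in controls and 188, 92.2, 265 and 112 CPM in mutants. Pepd was at 263, 392.3, 223 and 282 CPM in controls and 147, 83.1, 167.7 and 116 CPM in mutants. None of the 3 overlapped between genotypes. The log2 fold changes were -1.01 for Dpp4 (adjusted p = 8.95e-04), -1.94 for Xpnpep2 (adjusted p = 0.00582) and -1.15 for Pepd (adjusted p = 0.00565), all by edgeR. Xpnpep2 had the largest fall of the 30 genes, 3.83-fold, with an SE of 0.37, and its adjusted p without control mice C134 and C154 was 0.0505. Dpp4 is also made by T cells. All 10 T cell markers fell in the mutant ileum, and their summed level was 44.1 to 83.2 CPM in control libraries and 11.7 to 20.8 CPM in mutant ones. Their part in the Dpp4 result was not tested.

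Ace, the dipeptidyl carboxypeptidase known from the angiotensin system, also trims dietary peptides from the carboxyl end in the brush border. It was at 958, 1830.3, 812 and 826 CPM in control ileum and 306, 274, 529.8 and 291 CPM in mutant ileum. Control mouse C134 and mutant mouse M168 lay far above the rest of their groups, yet the groups did not overlap (log2 fold change -1.63, SE 0.33, adjusted p = 0.00597 by edgeR). Without mutant mice M167 and M177 the adjusted p was 0.0846. Dpep1, a dipeptidase that also converts leukotrienes, was at 491, 536, 396 and 467 CPM in controls and 279.6, 139, 315 and 245 CPM in mutants (log2 fold change -0.92, adjusted p = 0.0101 by edgeR, 0.0756 without control mice C134 and C154). Naaladl1, an ileal peptidase of the glutamate carboxypeptidase family, was at 2512, 2969, 2291 and 2793 CPM in controls and 1783, 822, 1795 and 1681 CPM in mutants. Mutant mouse M167 was the low one for Naaladl1, and the change of -0.77 (adjusted p = 0.0230 by edgeR) was not called without control mouse C134 or without control mouse C154.

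The other 3 surface peptidases were not called in the ileum. Ggt1, which cleaves glutathione, had a log2 fold change of -0.64 (95% interval, not adjusted for the number of genes, -1.13 to -0.15). All such intervals here are approximate. They assume a normal distribution, so with few libraries they are narrower than edgeR's test implies. Mme, neprilysin, had -1.13 (95% interval -2.02 to -0.25). Tmprss15, the enteropeptidase that activates trypsinogen, had -0.53 (95% interval -2.25 to 1.19). The intervals are wide, and all 3 reach to falls as large as those of called members. Of the cytosolic peptidases, Lap3, a leucine aminopeptidase, was at 324 ± 127 CPM in control ileum and 174 ± 46.2 CPM in mutant ileum (mean ± SD, n = 4 each). Its call was near the threshold (log2 fold change -0.87, adjusted p = 0.0467 by edgeR) and was lost in 10 of the 20 alternatives, among them those without C134, C154, M136, M167 or M177. Cndp2, a dipeptidase of the cytosol, was not called, at -0.54 (95% interval -1.02 to -0.06, unadjusted p = 0.0538 by edgeR). Its approximate interval leaves out 0 although the test did not reach an unadjusted p of 0.05.

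The peptide carrier fell. Slc15a1, the only carrier of the list that takes up di- and tripeptides, was at 547, 1159, 484 and 518 CPM in control ileum and 235, 153, 281 and 221 CPM in mutant ileum. Control mouse C134 was far above the other 3 controls, and every mutant lay below every control. The log2 fold change was -1.58 (SE 0.32, adjusted p = 0.00631 by edgeR) and the adjusted p without mutant mice M167 and M177 was 0.0769. Slc6a19, the main apical carrier of neutral amino acids, was at 534, 897, 559 and 696 CPM in controls and 555, 352, 769 and 610.2 CPM in mutants. These groups overlapped, with a log2 fold change of -0.21 (95% interval -0.68 to 0.27, adjusted p = 0.539 by edgeR). Cltrn, a partner protein of amino acid carriers known from the kidney, was barely present, at 0.190, 0.439, 0.266 and 0.435 CPM in control ileum and 0.0657, 0, 0 and 0 CPM in mutant ileum, and was called lower (adjusted p = 0.00368 by edgeR).

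Slc7a9 and Slc3a1 are the light and heavy subunits of the exchanger for cystine and dibasic amino acids, the pair that is defective in cystinuria. Slc7a9 was at 169, 187, 180.4 and 197 CPM in control ileum and 112, 92.9, 131 and 115 CPM in mutant ileum. The spread within each group was small and the groups did not overlap (log2 fold change -0.67, SE 0.11, adjusted p = 0.00108 by edgeR). Slc3a1 was at 412 ± 22.3 CPM in controls and 367 ± 63.3 CPM in mutants, a log2 fold change of -0.14 (95% interval -0.38 to 0.10). The light subunit was called and the heavy one was not. The log2 ratio of Slc7a9 to Slc3a1 was 0.53 lower in mutants, with mutant libraries from -1.95 to -1.56 and control libraries from -1.27 to -1.09. An exact permutation test of the 4 against 4 libraries gave the smallest p it allows, 0.0286 (two-sided, 70 arrangements), and 0.0686 after adjustment over 12 ratios chosen with the values known.

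Slc1a5 and Slc6a6 went the other way. Slc1a5 exchanges glutamine and other neutral amino acids and is known from proliferating cells, and Slc6a6 carries taurine. Slc1a5 was at 30.7, 35.5, 39.8 and 39.5 CPM in control ileum and 51.9, 56.6, 64.5 and 67.9 CPM in mutant ileum. All mutants lay above all controls, with a 1.69-fold higher level (log2 fold change 0.76, SE 0.12, adjusted p = 7.48e-04 by edgeR). Slc6a6 was at 342, 342, 317 and 243 CPM in controls and 455, 365, 444 and 367 CPM in mutants. Its groups were separated by a narrow gap, with a log2 fold change of 0.42 (adjusted p = 0.0254 by edgeR), and the call was lost in 6 of the 20 alternatives, among them those without C151, C154, M136 or M168. Of 9 markers of stem and cycling cells, 5 rose and 1 fell in the mutant ileum, while their summed level was 1170.3 to 1481 CPM in controls and 1087 to 1362 CPM in mutants. Their part in the Slc1a5 result was not tested.

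Among the other apical carriers, Slc6a20a, which carries proline and other imino acids, fell by 1.06 on the log2 scale (adjusted p = 0.0438 by edgeR) from 162 ± 39.9 to 76.2 ± 33.4 CPM. Its call was lost in 9 of the 20 alternatives, and reads may be shared with its close copy Slc6a20b. Slc36a1, a proton-coupled carrier of small neutral amino acids that also sits in lysosomes, fell by 0.49 (adjusted p = 0.0266 by edgeR), from 36.7 ± 4.28 to 25.7 ± 5.43 CPM, and was lost in 8 of 20. Slc1a1, the carrier of glutamate and aspartate, missed the threshold at -0.68 (adjusted p = 0.0505 by edgeR) and passed it in 7 of 20. The Slc6a20a call was lost without control mouse C133, C134 or C154 or mutant mouse M168 or M177, and the Slc36a1 call without C133, C134, M136 or M167. Slc1a1 was called without M167 or without M177.

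On the basolateral side, Slc7a8 and Slc7a7 are light chains that pair with the heavy chain Slc3a2, Slc16a10 carries aromatic amino acids and Slc43a2 carries large neutral ones. Slc16a10 was at 119, 249, 108 and 132 CPM in control ileum and 69.8, 58.8, 93.3 and 66.0 CPM in mutant ileum, and Slc7a8 was at 102, 203, 91.5 and 91.1 CPM in controls and 46.4, 49.9, 82.7 and 46.1 CPM in mutants. In both genes control mouse C134 was the highest of all and no mutant reached a control. The log2 fold changes were -1.05 for Slc16a10 (adjusted p = 0.0220), -1.09 for Slc7a8 (adjusted p = 0.0341) and -0.88 for Slc43a2 (adjusted p = 0.0261), all by edgeR. Each of these 3 calls was lost in 6 to 9 of the 20 alternatives. All 3 were lost without M136 and without M177, Slc16a10 and Slc7a8 also without M167, and Slc43a2 also without C154. Slc7a7 and Slc3a2 were not called, at 0.01 (95% interval -0.27 to 0.29) and -0.19 (95% interval -0.55 to 0.17). For Slc7a7 a fall of the size seen in Slc7a8 lies far outside this approximate interval. The unplaced carrier Slc7a15 was not called either, at -0.98 (95% interval -1.83 to -0.12, unadjusted p = 0.0583 by edgeR).

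Another 3 ratios between members reached the smallest exact p in the ileum, and their adjusted p was again 0.0686. The log2 ratio of Slc7a8 to Slc3a2 was 0.85 lower in mutants, and that of Mep1a to Mep1b 0.84 lower. The log2 ratio of Slc6a19 to Slc15a1 was 1.28 higher in mutants, which ran from 1.2 to 1.46 against -0.37 to 0.43 in controls. In none of these 3 ratios did the genotypes overlap. No ratio passed the threshold after adjustment.

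**Figure D2:**
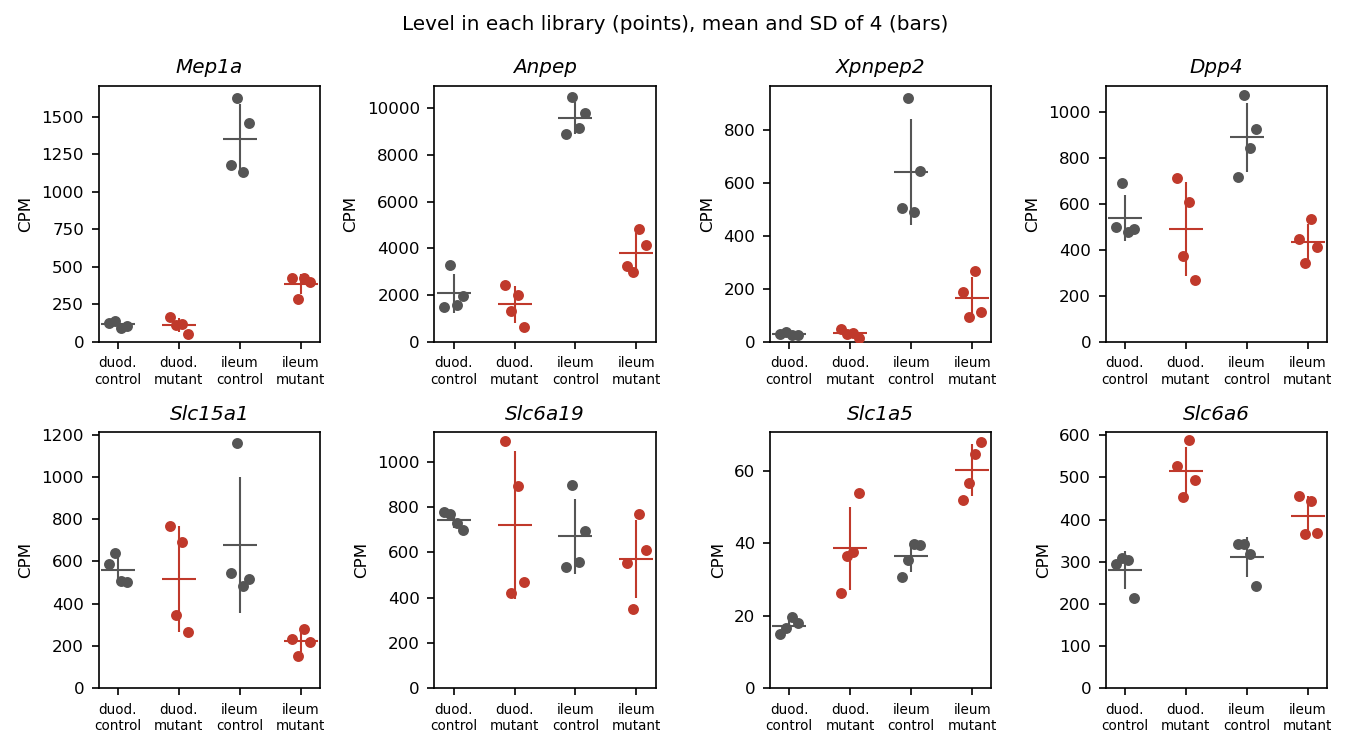
CPM (y axis) of 8 genes in each library (points, control in grey, mutant in red), with the mean and SD of 4 libraries per group (bars). Mep1a, Anpep, Xpnpep2 and Dpp4 are lower in all 4 mutant ileum libraries than in any control ileum library, and Slc1a5 and Slc6a6 are higher in mutants of both tissues without overlap, whereas Slc6a19 overlaps.

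In the duodenum the same comparison gave few calls. Slc1a5 and Slc6a6 rose and Slc36a1 fell, which is 2 higher and 1 lower of 30, where 3.44% of the 17611 genes tested rose and 5.11% fell (8.55% together). A total of 5 of the 30 had an unadjusted p under 0.05, where 5143 of all 17611 genes tested did. The log2 fold change was negative in 24 of 30, with a median of -0.20 against 0.02 over all genes tested. No surface or cytosolic peptidase was called, and none of the basolateral genes. In 2 genes every mutant lay above every control and in 2 below, where 7.81% and 10.8% of all genes tested were separated in these ways.

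Slc1a5 was at 14.9, 16.5, 19.6 and 17.95 CPM in control duodenum and 26.3, 36.5, 37.6 and 54.0 CPM in mutant duodenum. The lowest mutant exceeded the highest control, and the level was 2.26-fold higher (log2 fold change 1.18, SE 0.19, adjusted p = 0.00734 by edgeR). Slc6a6 was at 295, 308, 305 and 213 CPM in controls and 528, 454, 588 and 494 CPM in mutants. Its mutants also lay above all controls, by a wide gap (log2 fold change 0.89, SE 0.15, adjusted p = 0.00779 by edgeR). Slc36a1 fell by 0.84 (adjusted p = 0.0373 by edgeR) from 53.7 ± 17.7 to 29.6 ± 4.52 CPM. These 3 were the members called in both tissues, each in the same direction. None of the 3 was called without control mice C134 and C154, where 37 genes in all rose and 163 fell, or with the exocrine pancreas markers as a covariate, where 47 rose and 193 fell. The log2 fold change of Slc1a5 was 1.18 without these mice and 1.09 with the covariate, and that of Slc6a6 was 0.80 and 0.80, both close to the values above. That of Slc36a1 was -0.49 and -0.44, nearer to 0 than in the full comparison. The Slc36a1 call was also lost without control mouse C134, C151 or C154 and without mutant mouse M167 or M177.

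In the mutant duodenum the 4 mice fell into pairs. In 27 of the 30 genes mutant mice M167 and M177 both lay below mutant mice M136 and M168, an order found in 23.2% of the 18176 genes with at least 160 counts. Anpep, at 2444, 1310.3, 1995 and 651 CPM in mutant duodenum against 1475, 3280.3, 1571 and 1982 in controls, is an example. Dpp4, at 712, 375, 611 and 268 CPM against 498, 692, 477 and 491, is another. Both genes show the same 2 low mutants. Ace followed this order at 1985, 1005, 1579 and 504 CPM in mutant duodenum, against 1889 ± 606 CPM in controls, and Pepd at 295, 151.2, 262 and 105 CPM, against 326 ± 75.02 CPM. Mice M167 and M177 are those with the highest exocrine pancreas shares in the duodenum, 15.4% and 15.1%, and the part of that tissue in these levels was not tested beyond a covariate. With the exocrine pancreas markers as that covariate the median log2 fold change of the 30 genes was 0.004, against 0.02 over all genes tested. Without mice M167 and M177 the median log2 fold change of the 30 genes was 0.05, against 0.006 over all genes tested. Of the 30 genes 3 were higher and none lower, where 140 of 18342 genes tested were higher and 305 lower. The summed level of 15 enterocyte markers in the duodenum was 78235 to 89317 CPM in controls and 51640.5 to 90589 CPM in mutants.

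**Figure D3:**
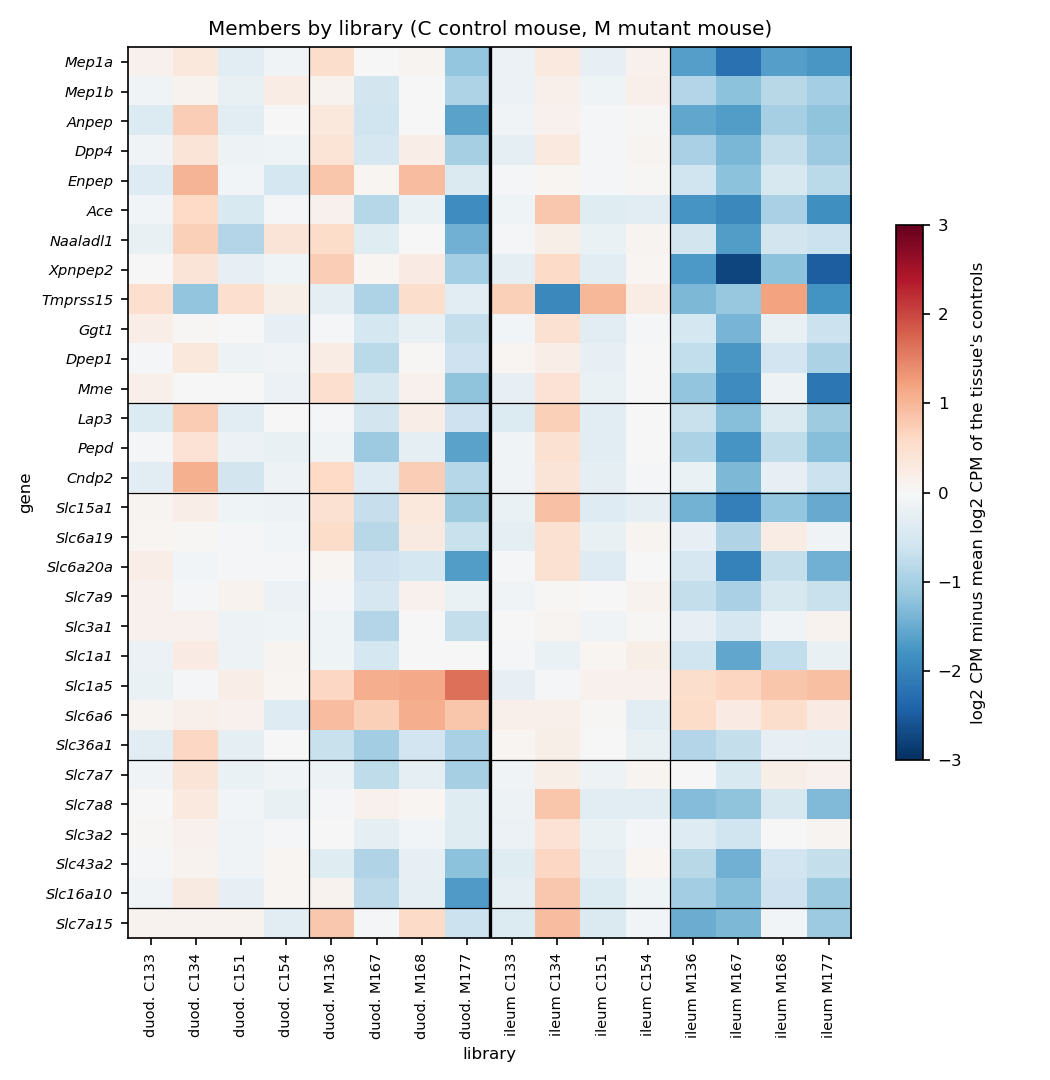
Log2 CPM of each gene (rows, grouped by role) in each library (columns), minus the mean log2 CPM of the controls of the same tissue (colour, from -3 to 3). The mutant ileum columns are mostly blue, the mutant duodenum columns M167 and M177 are bluer than M136 and M168, and Slc1a5 and Slc6a6 are red in all mutant columns.

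Single mice also stood apart in the ileum. Control mouse C134 was the highest control in 25 of the 30 genes in the ileum and in 21 of 30 in the duodenum, where it was highest in 26.6% and 29.5% of all genes with at least 160 counts. Mutant mouse M167 was the lowest mutant in 24 of 30 in the ileum, against 34.5% of all such genes. With mouse C134 left out, 14 of the 30 genes fell in the mutant ileum and 2 rose, where 2307 of 18705 genes tested fell and 3167 rose. The median log2 fold change of the 30 was then -0.70, against -0.03 over all genes tested. Of 15 enterocyte markers 4 fell and 2 rose in the mutant ileum, their median log2 fold change was -0.17, and their summed level was 29262.7 to 45098 CPM in controls and 21843 to 35802 CPM in mutants. Their part in the falls was not tested beyond the covariate. The covariate was the mean log2 CPM of these markers, not their sum. With it 17 of the 30 genes fell and 2 rose. The median log2 fold change of the 30 was -0.58 with the covariate and -0.87 without it. Over all genes tested the median was -0.04 with it and -0.03 without it. Of all 18310 genes tested 3625 fell and 4283 rose with the covariate, against 2672 and 3474 without it.

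Whether the genotype effect itself differed between tissues was tested as an interaction. It was more negative in the ileum in 27 of the 30 genes, with a median difference of -0.56 against -0.06 over all genes tested. Mep1a and Xpnpep2 passed the threshold, 2 of 30, where 4.13% of 19289 genes were called lower, and none of the 30 was higher, where 4.86% were (8.99% in either direction). Mep1a stood at 124, 142, 91.6 and 106 CPM in control duodenum and 165, 115, 120.4 and 50.9 CPM in mutant duodenum. Those groups overlapped, in contrast to the ileum, and the difference of the log2 fold changes was -1.78 (SE 0.37, adjusted p = 0.0139 by edgeR). Xpnpep2 stood at 28.7, 37.8, 24.3 and 26.2 CPM in control duodenum and 48.2, 29.9, 34.3 and 14.2 CPM in mutant duodenum, also with overlap. Its difference was -2.08 (SE 0.53, adjusted p = 0.0324 by edgeR). Neither was called without control mice C134 and C154, when 14 genes in all were higher and 8 lower, and the Mep1a call was also lost without control mouse C151. The Xpnpep2 call was lost without any 1 of the 4 control mice and without M136 or M167.

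The number in each label was read as the mouse, shared by its duodenum and ileum libraries, and can be entered as a block, and with this pairing 13 of the 30 genes had a more negative effect in the ileum and none a more positive one, where 1937 of all 19289 genes tested were lower and 2090 higher, up from 796 and 938 without the block. These were Xpnpep2 (difference -2.05), Mep1a (-1.70), Slc15a1 (-1.29), Enpep (-1.13), Mme (-1.08), Slc7a8 (-1.02), Dpp4 (-0.82), Dpep1 (-0.71), Mep1b (-0.64), Slc1a1 (-0.61), Lap3 (-0.61), Slc7a9 (-0.56) and Slc6a6 (-0.49). For Slc6a6 the negative difference stands for a smaller rise in the ileum than in the duodenum. The 13 are 7 surface peptidases, 1 cytosolic peptidase, 4 apical carriers and 1 basolateral carrier, with adjusted p from 0.00407 to 0.0450 by edgeR with the block. Anpep, whose ileal fall was among the largest, was not in it (adjusted p = 0.152 by edgeR with the block).

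The second axis of the design compares ileum with duodenum within each genotype. In controls 13 of the 30 genes were higher in the ileum and 8 in the duodenum, where 28% and 30.3% of the 18217 genes tested were (58.3% together). Every library of one tissue lay above every library of the other in 12 members with an ileal and 9 with a duodenal bias, as in 24.7% and 29% of all genes tested. The surface peptidases divided most sharply, with 8 of 12 higher in the ileum and 3 in the duodenum. None of the 5 basolateral genes was higher in the ileum, and 3 were lower. Markers of the regions themselves followed the labels in controls: 7 of 7 ileal markers were higher in the ileum, and 4 of 6 duodenal markers were higher in the duodenum with the other two not called. All 10 smooth muscle markers were higher in the control ileum and 10 of 15 enterocyte markers were lower, so the tissues also differed in these. Their part in the regional differences was not tested. With the mean log2 CPM of the enterocyte markers as a covariate 4 members were higher and 0 lower. Calls over all 18217 genes went from 5109 higher and 5511 lower to 102 and 103. With smooth muscle the members gave 5 and 1, and all genes 571 and 545.

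At the ileal end, Naaladl1 was at 61.4, 118, 38.5 and 93.0 CPM in control duodenum, 34.2-fold below its ileal level given above (log2 ratio 5.10, SE 0.36, adjusted p = 6.07e-06 by edgeR). Xpnpep2 followed with a log2 ratio of 4.46 (adjusted p = 1.11e-06 by edgeR) and Mep1a with 3.55 (adjusted p = 2.39e-07 by edgeR). Slc1a1 was the carrier with the steepest ileal bias. It was at 22.8, 30.3, 23.1 and 27.5 CPM in control duodenum and 166, 148, 175 and 190.0 CPM in control ileum, with a log2 ratio of 2.72 (adjusted p = 1.08e-07 by edgeR). In mutants the same carrier was at 23.6, 17.8, 25.8 and 26.1 CPM in duodenum libraries and 112, 57.3, 102 and 145 CPM in ileum libraries, with no overlap between tissues in either genotype.

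At the duodenal end, Tmprss15 was at 603, 187, 602 and 482 CPM in control duodenum and 17.8, 2.82, 21.6 and 12.6 CPM in control ileum (log2 ratio -5.08, SE 0.77, adjusted p = 0.00152 by edgeR). Control mouse C134, the highest control in most other members, was the lowest for Tmprss15 in both tissues. In mutants Tmprss15 was at 348, 223, 617 and 338 CPM in duodenum libraries and 4.27, 4.91, 24.8 and 3.14 CPM in ileum libraries. Mme was at 3069.7, 2808, 2781 and 2472 CPM in control duodenum and 352, 568, 362 and 422 CPM in control ileum, a log2 ratio of -2.70 (adjusted p = 8.34e-07 by edgeR). In mutants it was at 3912, 1973, 3023 and 1197 CPM in duodenum libraries and 184, 113, 373 and 92.4 CPM in ileum libraries, where ileal mice M167 and M177 were the low ones. Both peptidases were thus duodenal in both genotypes, and every duodenal library exceeded every ileal one.

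Ggt1 was at 1227, 1079.6, 1070.2 and 894 CPM in control duodenum and 333, 488, 280.2 and 347 CPM in control ileum, and at 1023, 742, 908 and 646 CPM in mutant duodenum and 245, 135, 306 and 226 CPM in mutant ileum. No ileal library of Ggt1 reached a duodenal one. Its log2 ratio of ileum over duodenum was -1.55 in controls (adjusted p = 2.84e-05 by edgeR). Slc7a8 was at 299, 363, 279 and 253 CPM in control duodenum and 289, 324, 309 and 229.8 CPM in mutant duodenum, nearly the same range in both genotypes. Its log2 ratio of ileum over duodenum was -1.28 in controls (adjusted p = 0.00466 by edgeR) and -2.34 in mutants (adjusted p = 2.26e-05 by edgeR). Ace had a log2 ratio of -0.76 in controls, which was not called (adjusted p = 0.0651 by edgeR), and -1.84 in mutants, which was (adjusted p = 0.00770 by edgeR). With the mouse number as a block Ace was called lower in the ileum in both genotypes. Its log2 ratio was then -0.80 in controls and -1.72 in mutants (adjusted p = 2.60e-04 and 0.00462 by edgeR with the block). Of the 8 genes named here by their regional bias, Mep1a, Xpnpep2 and Slc1a1 kept the call in controls in all 15 alternatives, and Naaladl1, Tmprss15, Mme, Ggt1 and Slc7a8 lost it with the smooth muscle covariate, the enterocyte covariate or both, fits in which few genes were called at all. With the enterocyte covariate the log2 ratio of Naaladl1 was 5.41 and that of Tmprss15 -9.43, no smaller in size than without it, while Mme was at -1.61, Ggt1 at -0.27 and Slc7a8 at 0.50. The values with the covariate were less precise. The SE was 0.99 for Naaladl1 and 2.54 for Tmprss15, against 0.36 and 0.77 without the covariate.

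In mutants 6 of the 30 genes were higher in the ileum and 9 lower, where 12.9% and 18.2% of the 17852 genes tested were (31.1% together). With the mouse number as a block the counts were 10 higher and 13 lower in mutants, where 3058 of all 17852 genes were higher and 3893 lower, against 2301 and 3246 without the block. By side, in the fits without the block, 6 genes were higher in the ileum in both genotypes, 7 were lower in both, 7 were higher in controls alone, 1 was lower in controls alone, 2 were lower in mutants alone and 7 were called in neither. The sides depended on the block. With it Enpep, Lap3, Cndp2 and Slc3a1 were higher in both genotypes, and Slc6a20a and Ace were lower in both. Slc7a9, Slc6a6 and Pepd were then lower in mutants alone, and Slc7a7 and Slc36a1 in controls alone. A call in one genotype alone does not show that the genotypes differ, and the interaction above is that test. The log2 ratio was lower in mutants in 27 of 30. The region comparisons and the genotype comparisons share their libraries, so this count restates the interaction. Slc15a1 had log2 ratios of 0.28 in controls and -1.20 in mutants, Anpep 2.21 and 1.26, Enpep 1.87 and 0.82, and Dpp4 0.73 and -0.16.

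**Figure D4:**
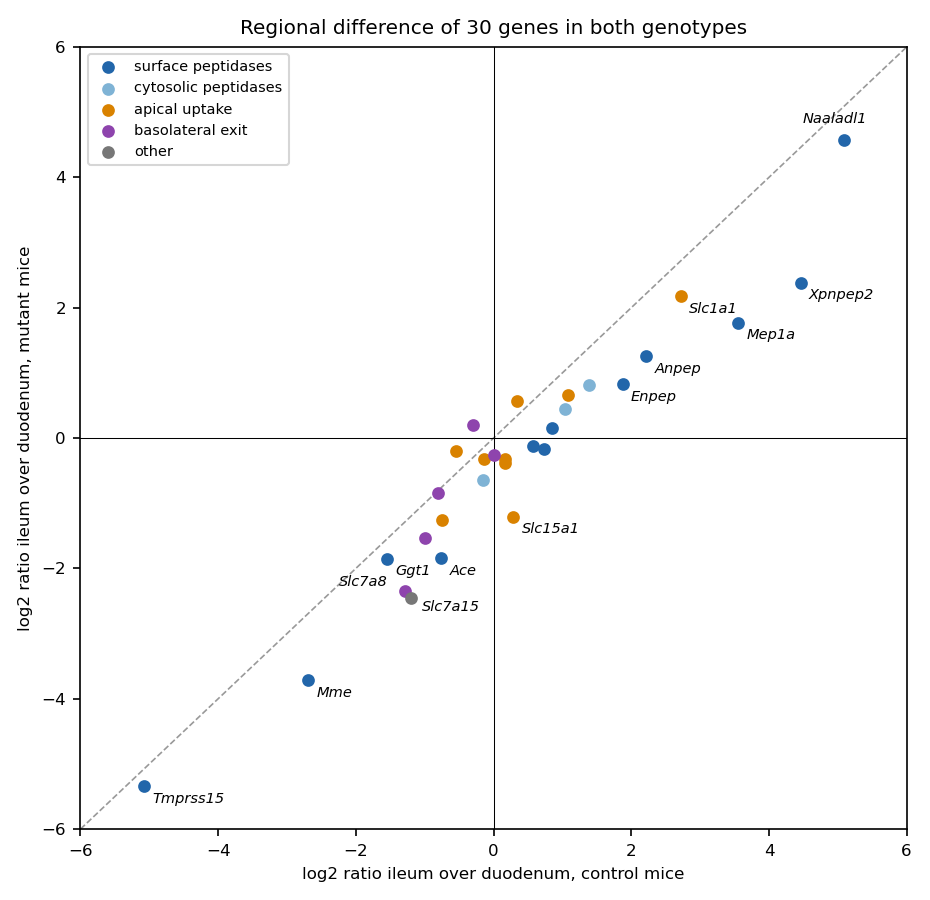
Log2 ratio of ileum over duodenum in controls (x axis) and mutants (y axis) for the 30 genes (points, coloured by role), with the line of equality dashed. Points below the line have a lower ratio in mutants, which holds for 27 of 30, and the 2 axes share the libraries of the genotype comparison.

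Genes of the same pathway outside the 30 moved in both directions in the ileum. Of 32 other peptidases 10 rose and 7 fell in the mutant ileum, with a median log2 fold change of 0.10, and of 31 other amino acid carriers 9 rose and 4 fell, with a median of 0.01. Among these peptidases Cpm, a membrane carboxypeptidase that removes basic residues, fell in the ileum by 1.65 on the log2 scale (adjusted p = 5.21e-05 by edgeR). Its effect differed between tissues (-1.90, adjusted p = 0.00133 by edgeR), as for Mep1a and Xpnpep2. The cytosolic oligopeptidase Thop1 rose in both tissues, by 0.84 in the duodenum and 1.55 in the ileum (adjusted p = 0.0119 and 2.17e-05 by edgeR). Prep, which cuts after proline inside the cell, rose by 0.45 and 0.61 (adjusted p = 0.0168 and 2.51e-04 by edgeR), and the membrane serine protease Prss8 by 0.93 and 0.90 (adjusted p = 0.0263 and 1.51e-04 by edgeR). In the duodenum 3 of 31 other peptidases rose and 2 fell.

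Some carriers outside the list rose, as Slc1a5 did. Slc1a4, a close relative of Slc1a5, rose by 1.43 in the duodenum and 1.39 in the ileum (adjusted p = 0.0437 and 1.65e-04 by edgeR), from 15.3 ± 0.685 to 39.1 ± 10.9 CPM in the ileum. The glutamine carriers Slc38a3 and Slc38a2 rose in the ileum by 2.30 and 0.92 (adjusted p = 1.45e-04 and 0.00146 by edgeR). Slc6a20b, the close copy of Slc6a20a, fell in the ileum by 2.98 (adjusted p = 1.89e-04 by edgeR), from 3.56 ± 0.867 to 0.444 ± 0.210 CPM. In the duodenum 2 of 29 other carriers rose and 3 fell.

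Of 12 genes for partners and driving forces of transport 2 rose and 3 fell in the ileum. Pdzk1, a scaffold of the brush border that binds carriers, fell by 2.05 (adjusted p = 0.0123 by edgeR). Pdzd11, a small protein with a single PDZ domain, went opposite ways in the tissues, with -0.51 in the duodenum and 0.53 in the ileum, and the difference of 1.03 passed the test (adjusted p = 0.00868 by edgeR). The potassium channel Kcnq1 rose in the duodenum by 0.57 (adjusted p = 0.0258 by edgeR) and was not called in the ileum (-0.17). These lists were picked by function, and their lead genes are those with the smallest genotype p.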

How the data were processed

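RNA-seq was made from duodenum and ileum of 8 mice (16 libraries), as stranded total RNA with ribosomal RNA removed, per the labels' protocols. The deposited values are raw read counts per Ensembl gene, and the submitters' processing notes name cutadapt 1.10, Bowtie2 2.2.8, STAR 2.5.3a, HTSeq 0.6.1p1 and the mm39 build; which annotation release and strand setting were used is not given in the sources used here. Of 55359 IDs, 52083 were matched to a symbol, and the 3276 unmatched ones held 1.02% of counts. Symbols and exon lengths came from GENCODE for GRCm38, promoters from RefSeq.

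Genes were filtered with filterByExpr, TMM-scaled and tested in R 4.3.3 with edgeR 4.0.16 (robust quasi-likelihood F test, Benjamini-Hochberg over all genes tested, threshold 0.05). The 5 comparisons were genotype in each tissue, their difference, and ileum against duodenum in each genotype. Standard errors were taken from the F statistic. DESeq2 1.42.0, limma 3.58.1, other filters, covariates and left-out libraries were the alternatives. Scripts were tested on simulated data with 200 changed genes. The number in each label was read as the mouse, which the labels do not spell out. Same-numbered libraries correlated at 0.221 to 0.481 in their deviations from group means, and differently numbered ones at up to 0.260; 7 of 8 mice matched their own number best (M168 did not). The number was taken to pair the tissues. Replicates are separate mice, and no pair of libraries was identical. The members and lists were chosen with earlier results of these data known. Genes named with values in every library were the 14 called members with the smallest genotype p and the 4 called members at each end of the regional order in controls, and up to 4 genes per other list with the smallest genotype p, with Cltrn and Neurog3 always named; Slc6a19 was added after its values were seen, as a carrier that was not called; 1 further gene the rule names is not reported here.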

Additional observations from a re-analysis of the deposited data

Results flagged for a closer look

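In each group of 4 libraries the highest and the lowest value of every member were compared with the rest, and a library was marked when its gap to the nearest one exceeded Dixon's 95% critical value, which chance alone gives in about 1 in 20 groups. Of 120 groups 15 had such a library. Control mouse C134 gave 8 of them as the highest. In the duodenum these were Dpp4 at 692 CPM, Dpep1 at 327 CPM, Cndp2 at 468 CPM and Slc7a7 at 327 CPM. In the ileum they were Ace at 1830.3 CPM, Slc15a1 at 1159 CPM, Slc7a8 at 203 CPM and Slc16a10 at 249 CPM. Mutant mouse M168 was the highest mutant ileum library for Ace at 529.8 CPM, Tmprss15 at 24.8 CPM and Slc7a8 at 82.7 CPM. Mutant mouse M167 was the lowest for Naaladl1 in the ileum at 822 CPM. In the duodenum control mouse C154 was the lowest for Slc6a6 at 213 CPM and for Slc7a15 at 68.0 CPM, and control mouse C133 was the highest for Slc6a20a at 313 CPM.

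The genotype effect differed between the tissues for Mep1a, by -1.78 on the log2 scale, and for Xpnpep2, by -2.08, by edgeR's test of the difference.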

How the results depend on the processing

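Counts are of the 30 genes unless all genes are named, higher then lower. In the duodenum they were 2 and 1. The lower count was 2 with the DESeq2 Wald test, and 0 with any of the 3 covariates (smooth muscle, enterocyte, exocrine pancreas) and when either pair of mice, C134 with C154 or M167 with M177, was left out. The higher count was 0 with the exocrine covariate and when C134 and C154 were left out. Leaving out 1 mouse at a time gave 2 to 2 and 0 to 2. Over all genes the duodenum gave 606 and 900 in the main fit and 1387 and 1585 with the Wald test. The smooth muscle, enterocyte and exocrine covariates gave 542 and 656, 205 and 471, and 47 and 193. Without C134 and C154 all genes gave 37 and 163, and without M167 and M177 140 and 305. In the ileum the counts of 2 and 18 became 1 and 10 without mice C134 and C154 and 2 and 11 without mice M167 and M177. They were 1 and 12 under the exocrine covariate, and 2 and 12 with no filter on low counts. Leaving out 1 mouse gave 1 to 2 and 13 to 20. Over all genes the ileum gave 3474 and 2672 in the main fit. Without C134 and C154 all genes gave 2390 and 1677, and without M167 and M177 3512 and 2103. The exocrine covariate gave 3137 and 2360 over all genes, and no filter 3333 and 2374. For the difference between tissues, 0 and 2, the lower count was 5 with DESeq2, 1 with no filter and 4 with a filter of 1 CPM in 4 libraries. It was 10 (with 1 higher) with the enterocyte covariate and 13 with the mouse number as replicate block. It was 0 without mice C134 and C154 and 7 without mice M167 and M177. Leaving out 1 mouse gave 0 to 3, with none higher. Over all genes this difference gave 938 and 796 in the main fit, 1771 and 1428 with DESeq2 and 707 and 509 with no filter. The CPM filter gave 859 and 925, the enterocyte covariate 1834 and 1603 and the block 2090 and 1937. Without C134 and C154 all genes gave 14 and 8, and without M167 and M177 927 and 366.

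Ileum against duodenum in controls, 13 and 8, became 5 and 1 with the smooth muscle covariate, 4 and 0 with the enterocyte covariate, and 13 and 11 with the replicate block. Leaving out 1 mouse gave 10 to 13 and 6 to 10. Over all genes the controls gave 5109 and 5511 in the main fit and 571 and 545 with smooth muscle. They gave 102 and 103 with enterocytes and 5423 and 5832 with the block. In mutants, 6 and 9 became 0 and 0 with smooth muscle, 15 and 3 with enterocytes and 3 and 9 with the exocrine covariate. They became 10 and 13 with the block, and 9 and 10 without mice M167 and M177. Leaving out 1 mouse gave 4 to 6 and 7 to 10. Over all genes the mutants gave 2301 and 3246 in the main fit and 97 and 122 with smooth muscle. They gave 760 and 1166 with enterocytes, 1148 and 1846 with the exocrine covariate, 3058 and 3893 with the block, and 1709 and 2569 without M167 and M177. Among the alternatives run, sign changes involving a called value occurred in the regional comparisons alone. In controls they were Slc16a10 at 0.57 and Slc7a15 at 0.23 with smooth muscle, Slc3a2 at 0.15, Slc16a10 at 0.78, Slc7a15 at 0.86, Slc7a8 at 0.50 and Slc6a20a at 0.61 with enterocytes, and Slc43a2 at -0.29 without mice C134 and C154. In mutants with the enterocyte covariate they were Slc6a19 at 1.25, Slc15a1 at 0.38, Dpp4 at 1.09, Slc43a2 at 0.78 and Pepd at 0.86. The cause was not tested. The covariates are mean log2 levels of markers that themselves differ between the tissues. The exocrine covariate and the runs without pairs of mice were chosen after seeing the data.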

Other observations

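Of 17 transcription factors of enterocytes, listed because they are known regulators of brush border genes, 3 rose and 6 fell in the mutant ileum, with a median log2 fold change of -0.14, and 1 fell in the duodenum. Maf, known from mature enterocytes, fell in the ileum by 1.15 on the log2 scale (adjusted p = 4.72e-05 by edgeR), from 358 ± 19.2 to 157 ± 17.5 CPM (mean ± SD, n = 4 each), and its effect differed between the tissues (-0.84, adjusted p = 0.0356 by edgeR). Macrophages also make Maf, and 7 of 10 macrophage markers fell and 2 rose in the mutant ileum, where their summed level was 181 to 218 CPM against 245 to 332 CPM in controls; their part in the Maf result was not tested. Prdm1, known from the fetal to adult change of the epithelium, fell in the ileum by 0.71 (adjusted p = 8.89e-04 by edgeR), and Bcl6 by 0.50 (adjusted p = 0.00542 by edgeR). In the mutant ileum 6 of 8 B cell follicle markers and all 10 T cell markers also fell. The part of these cells in the Prdm1 and Bcl6 results was not tested. Gata5 fell in both tissues, by 0.74 in the duodenum and 0.56 in the ileum (adjusted p = 0.00875 and 0.0222 by edgeR), without overlap between genotypes in either.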
